A study of Mus musculus with 3 samples.

Results

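The 6 wells described here, of a kinase inhibitor screen, held compounds directed at SRC family kinases or at ABL. They were picked by the compound name, at a time when earlier results of these data were known. They carried 4 compounds and stood among 217 compound wells tested on 3 plates (221 compound wells before a depth filter). On plate 1, 1-Naphthyl PP1 was present as free base and as hydrochloride, with 1 well each, and AZM475271 had 1 well. On plate 2, Flumatinib was present as free base and as mesylate, with 1 well each. On plate 3, A-419259 was present as trihydrochloride in 1 well.

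The screen used DRUG-seq2, in which the RNA of each well is barcoded during reverse transcription and the wells of a plate are sequenced as 1 library. All wells used here held wild-type mouse embryonic fibroblasts (MEF), connective tissue cells of the embryo. Each compound well received 1 compound of a commercial library in CFAE+8 medium, and treatment lasted 4 days. Each compound was compared with the other compound wells of its plate, 87 on plate 1, 84 on plate 2 and 40 on plate 3, because no well used here was named as a vehicle control. Those wells held other compounds of the library in the same medium, so a response shared by many compounds reduces a difference from them. No source used here states the dose, the strain or the embryos behind the cells, and nothing says whether wells came from separate cultures. The p-values therefore measure the spread between wells. These wells held different compounds, so the spread includes their responses as well as variation between like wells. Each well is a bulk sample, in which fewer cells of a type and less RNA per cell cannot be told apart.

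SRC family kinases (Src, Yes1 and Fyn in most cells, with further members in blood cells) carry signals from integrins and growth factor receptors to focal adhesions, the actin cytoskeleton and the ERK pathway. CSK shuts them off by phosphorylating their tail, and phosphatases such as PTPN1 and PTPRA remove that phosphate. ABL1 and ABL2 are related tyrosine kinases that remodel actin, and ABL1 drives chronic myeloid leukaemia when fused to BCR. 1-Naphthyl PP1 inhibits SRC family kinases and is best known for blocking kinases engineered with an enlarged ATP pocket. AZM475271 and A-419259 are SRC family inhibitors. Flumatinib, a derivative of imatinib, is directed at ABL, the PDGF receptors and KIT.

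The 6 wells were ordinary in depth. Total counts were 219500 in the 1-Naphthyl PP1 free base well, 303649 in its hydrochloride well and 399067 in the AZM475271 well, against a median of 319587 in the other compound wells of plate 1 (range 45416 to 591025). They were 713258 for Flumatinib and 617504 for its mesylate, against a median of 608986 on plate 2, and 401934 for A-419259, against a median of 440222 on plate 3. The 1-Naphthyl PP1 free base well was the shallowest of the 6 and ranked 74th of the 90 tested wells of its plate. All 30 genes of a fibroblast and matrix list had counts in at least 1 of the 6 wells. Their sum was 9141 to 11991 CPM (counts scaled by the total of the well). The median of the other compound wells was 10678 CPM. By the same measure 12 of 13 neural and 10 of 11 skeletal muscle markers had counts, so presence alone does not mark fibroblasts. The sums were set beside compound wells only, so whether the label fibroblast held was not tested. Macrophage, endothelial, skeletal muscle, neural, epithelial and extraembryonic endoderm marker sums lay within the range of the other wells in each of the 6. Pluripotency markers summed to 0 to 2.80 CPM, with Nanog, Esrrb, Lin28a, Utf1, Tdgf1 and Sall4 at 0 counts.

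No gene was called in any of the 4 compounds. With edgeR's quasi-likelihood test and Benjamini-Hochberg adjustment over all genes tested, 0 of 3441 genes passed an adjusted p of 0.05 for 1-Naphthyl PP1, 0 of 3441 for AZM475271, 0 of 4524 for A-419259 and 0 of 5295 for Flumatinib (0.0% in each). At an unadjusted p under 0.05 there were 107 genes for 1-Naphthyl PP1 (3.11%), 43 for AZM475271 (1.25%), 136 for A-419259 (3.01%) and 185 for Flumatinib (3.49%). DESeq2 also called 0 in each, with 102 genes at an unadjusted p under 0.05 for 1-Naphthyl PP1, 45 for AZM475271, 114 for A-419259 and 192 for Flumatinib. The smallest adjusted p was 0.980 for 1-Naphthyl PP1 and 0.997 for A-419259. Fitted one by one in edgeR, the 6 wells gave 0 calls each (0.0%), with 41 to 136 genes at an unadjusted p under 0.05.

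The absence of calls carries a limit that differs between compounds. The median standard error (SE) of a log2 fold change was 0.25 for Flumatinib and 0.29 for 1-Naphthyl PP1, with 2 wells each, and 0.38 for AZM475271 and 0.39 for A-419259, with 1 well each. The 95% interval of the change lay wholly within 2-fold in either direction for 87.7% of the genes tested for Flumatinib and 75.6% for 1-Naphthyl PP1. The shares were 55.97% for AZM475271 and 45.6% for A-419259. For the remaining genes the interval reached past 2-fold in at least 1 direction. A lone well was assumed to vary like the other wells of its plate. The spread of those wells includes responses to their different compounds, which widens the intervals of genes that respond to some of them.

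No gene of the targeted kinases was called. Of 31 genes on 2 lists (SRC family and ABL kinases with their regulators, and PDGF receptor, KIT, CSF1R and DDR kinases with their ligands), 18 reached 10 CPM on average in the compound's wells or in the other wells, for each of the 4 compounds. Of these, 9 were tested for 1-Naphthyl PP1, 9 for AZM475271, 13 for A-419259 and 13 for Flumatinib, and 0 were called. Of these 44 comparisons, 3 had an unadjusted p under 0.05 in edgeR: Abl1 for AZM475271 (1 of 9) and Csk and Ddr2 for Flumatinib (2 of 13). Over all genes tested the shares were 1.25% for AZM475271, 3.49% for Flumatinib, 3.11% for 1-Naphthyl PP1 and 3.01% for A-419259. Whether the kinase genes differed from these shares was not tested. The log2 fold changes ran between -0.79 (Ptpra, A-419259) and 0.45 (Abl1, A-419259).

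**Figure D1:**
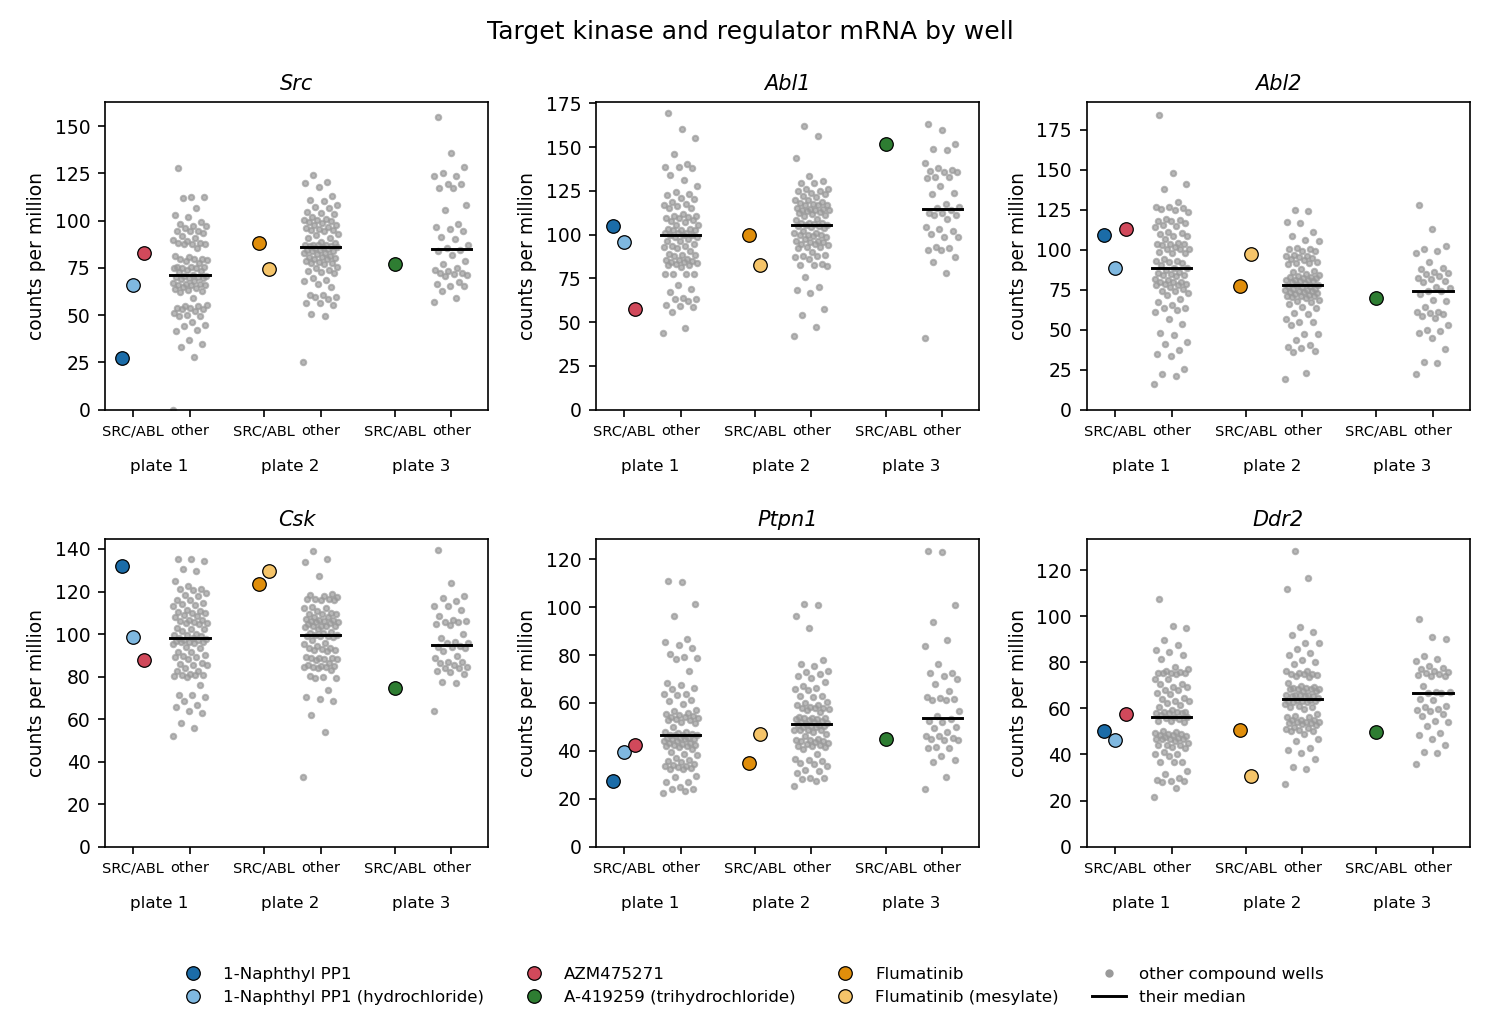
CPM (y axis) of 6 kinase and regulator genes in the 6 SRC and ABL inhibitor wells (large coloured points, left of each plate's pair) and in the other compound wells (small grey points, black line at their median) of plates 1 to 3. Every coloured point lies within the range of the grey points of its plate, with Src in the 1-Naphthyl PP1 free base well (27.3 CPM) near the bottom of plate 1.

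Src itself (chromosome 2, 157418444 to 157471862, plus strand; GENCODE vM21 on mm10, as all positions here) had 27.3 CPM in the 1-Naphthyl PP1 free base well, 65.9 CPM in its hydrochloride well and 82.7 CPM in the AZM475271 well, against 0, 71.2 and 128 CPM (lowest, median, highest) in the other wells of plate 1. It had 88.3 CPM with Flumatinib and 74.5 CPM with its mesylate, against 25.2, 85.8 and 124 CPM on plate 2. It had 77.1 CPM with A-419259, against 56.8, 85.0 and 155 CPM on plate 3. Only the 1-Naphthyl PP1 free base well was near the bottom of its plate, and its value rested on 6 counts. The log2 fold change for the 2 wells of 1-Naphthyl PP1 was -0.59 ± 0.32 (SE; 95% interval -1.23 to 0.05), and it was 0.18 ± 0.37 for AZM475271, -0.18 ± 0.37 for A-419259 and -0.05 ± 0.19 for Flumatinib.

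Abl1 (chromosome 2, 31688376 to 31804227, plus strand), the target of Flumatinib, had 99.5 CPM in the Flumatinib well and 82.6 CPM in the mesylate well, against 42.4, 106 and 162 CPM in the other wells of plate 2. Both were inside that range, and the log2 fold change was -0.17 ± 0.19 (SE; interval -0.56 to 0.21). The AZM475271 well had 57.6 CPM of Abl1, against 44.0, 99.5 and 169 CPM on plate 1, which placed it 85th of 88. Its log2 fold change was -0.76 ± 0.36 (unadjusted p = 0.0383, edgeR; not called). The A-419259 well, at 152 CPM against 40.9, 115 and 163 CPM on plate 3, lay at the other end of the range (0.45 ± 0.29). The log2 fold change of Abl2 was 0.17 ± 0.36 for 1-Naphthyl PP1, 0.37 ± 0.46 for AZM475271, 0.04 ± 0.47 for A-419259 and 0.20 ± 0.26 for Flumatinib.

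Csk, the kinase that shuts off the SRC family, had 123 CPM with Flumatinib and 129.6 CPM with its mesylate, against 32.7, 99.5 and 139 CPM in the other wells of plate 2. Set singly among the 84 other wells, the free base ranked 5th and the mesylate 4th, and the log2 fold change was 0.38 ± 0.16 (SE; unadjusted p = 0.0241, edgeR; not called). The same gene had 132 CPM in the 1-Naphthyl PP1 free base well and 98.8 CPM in its hydrochloride well, against a median of 98.0 CPM, so the forms did not lie together. It was lower with AZM475271, at 87.7 CPM (-0.15 ± 0.28), and with A-419259, at 74.6 CPM against 64.0, 94.9 and 139 CPM on plate 3 (-0.31 ± 0.27), where only 1 other well was below it. Of the phosphatases that act on SRC kinases, Ptpn1 lay below 0 in all 4 compounds, between -0.57 ± 0.39 for 1-Naphthyl PP1 and -0.25 ± 0.47 for AZM475271, with every interval including 0. Ptpra was lowest for A-419259 at -0.79 ± 0.44, where the well's 39.8 CPM lay below all 40 other wells of plate 3 (42.9, 65.9 and 129 CPM), and this was not called.

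Among the receptor kinases, Ddr2, a collagen receptor of fibroblasts, had 50.5 CPM with Flumatinib and 30.8 CPM with its mesylate, against 27.0, 64.2 and 128 CPM in the other wells of plate 2. Both wells were in the lower part of the range, and the log2 fold change was -0.63 ± 0.25 (unadjusted p = 0.0123, edgeR; not called). Pdgfrb, a receptor for platelet-derived growth factor, had 33.6 CPM with Flumatinib and 37.2 CPM with the mesylate, against a median of 34.7 CPM, a log2 fold change of -0.02 ± 0.37. Pdgfra was too low to be tested, at 12.6 and 11.3 CPM against a median of 19.8 CPM. Kit did not reach 10 CPM in either group of any plate. The ligands Pdgfa and Pdgfc were at -0.20 ± 0.32 and -0.23 ± 0.22 for Flumatinib.

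Genes downstream of SRC were examined next. Of 29 listed substrates and focal adhesion genes, 20 were tested for 1-Naphthyl PP1, 20 for AZM475271, 21 for A-419259 and 22 for Flumatinib, with 0 called in any. Their median log2 fold change was -0.12 for 1-Naphthyl PP1, -0.04 for AZM475271, -0.23 for A-419259 and 0.05 for Flumatinib, beside a median of all genes tested of -0.03 for 1-Naphthyl PP1, AZM475271 and A-419259 and -0.02 for Flumatinib. For A-419259, 18 of the 21 lay below 0, and whether this differed from all genes tested was not tested. Crk, an adaptor that binds phosphorylated focal adhesion proteins, was lowest at -1.41 in this 1 well. It was picked as the lowest of the list after the values were seen. The highest expressed gene of the list, Zyx, a focal adhesion protein bound to actin, had 1291 CPM with Flumatinib and 1344 CPM with its mesylate, against 482, 1041 and 1506 CPM. Set singly among the 84 other wells they ranked 5th and 4th, a log2 fold change of 0.35 ± 0.17 (unadjusted p = 0.0456, edgeR; not called). Zyx was at 0.01 ± 0.18 for 1-Naphthyl PP1, -0.01 ± 0.25 for AZM475271 and -0.03 ± 0.27 for A-419259.

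Contractile and SRF target genes, which respond to actin assembly, gave 0 calls among 14 tested genes for 1-Naphthyl PP1 and AZM475271 and 17 for A-419259 and Flumatinib. Their median log2 fold change was 0.00 for 1-Naphthyl PP1, -0.27 for AZM475271, -0.13 for A-419259 and 0.12 for Flumatinib. Beta-actin (Actb), the most abundant, had 2351 and 2279 CPM in the wells of 1-Naphthyl PP1 and 1706 CPM with AZM475271, against 1475, 2016 and 3891 CPM on plate 1. None of these 3 wells left the range of the others. Acta2, smooth muscle actin, a gene chosen after its values were seen, had 315 CPM with Flumatinib and 338 CPM with its mesylate, against 22.7, 156 and 3107 CPM on plate 2. Each ranked 12th among the 84 other wells, and the log2 fold change was 0.35 ± 0.81. Acta2 is also an example of a gene for which the fitted reference lay above the median well: 1-Naphthyl PP1 had 323 and 214 CPM against a median of 174 CPM and a mean of 284 CPM, with a highest well of 2594 CPM.

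The same held for Col1a1. This collagen gene (chosen after its values were seen) had 114 and 125 CPM with 1-Naphthyl PP1, 97.7 CPM with AZM475271, 117 CPM with A-419259, and 122 and 128 CPM with Flumatinib and its mesylate. The medians of the other wells were 113 CPM on plate 1, 131 CPM on plate 3 and 122 CPM on plate 2, and the highest wells had 2662 CPM on plate 1, 1114 CPM on plate 3 and 2866 CPM on plate 2. The 6 wells lay close to the plate medians, while the fitted log2 fold changes were -0.69 ± 1.04 for 1-Naphthyl PP1, -0.98 ± 1.44 for AZM475271, -0.54 ± 0.98 for A-419259 and -0.66 ± 0.91 for Flumatinib. Of the 30 genes of the fibroblast and matrix list, 19 to 25 were tested and 0 were called. Thy1, the most abundant, ranged between -0.07 ± 0.65 (AZM475271) and 0.53 ± 0.56 (A-419259).

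ERK pathway targets, which rise and fall with MEK and ERK activity, numbered 8 tested genes in each compound with 0 called. Of the 8, 3 lay above 0 for 1-Naphthyl PP1 (median log2 fold change -0.15), 4 for AZM475271 (median -0.04), 2 for A-419259 (median -0.25) and 7 for Flumatinib (median 0.15). Ccnd1, the cyclin that starts the cell cycle and the most abundant of them, had 1431 and 1456 CPM with 1-Naphthyl PP1 and 1115 CPM with AZM475271, against 60.1, 1329 and 2093 CPM on plate 1. It had 1134 and 994 CPM with Flumatinib and its mesylate, against 231, 1389 and 2277 CPM on plate 2, and 1329 CPM with A-419259, against 544, 1656 and 2123 CPM on plate 3. Both Flumatinib wells were in the lower part of the plate 2 range (71st and 76th), and the log2 fold change was -0.34 ± 0.30 (SE; interval -0.93 to 0.26), the only one of the 8 below 0 for Flumatinib. YAP targets, which follow cell spreading, had 5 to 8 genes tested and 0 called. For 1-Naphthyl PP1, 4 of 5 lay below 0 (median -0.09), for AZM475271 4 of 5 (median -0.27), for A-419259 3 of 6 (median 0.00) and for Flumatinib 5 of 8 (median -0.14). Amotl1, the most abundant, was highest for 1-Naphthyl PP1 at 0.30 ± 0.21, the only one of the 5 above 0 there, and lowest for Flumatinib at -0.26 ± 0.17. Ier5, the most abundant immediate early gene, lay between -0.29 ± 0.28 (AZM475271) and 0.18 ± 0.20 (1-Naphthyl PP1).

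No cell cycle gene was called. Of 25 listed genes of DNA replication and S phase, 12 were tested for 1-Naphthyl PP1 and AZM475271, 14 for A-419259 and 18 for Flumatinib, with 0 called. For 1-Naphthyl PP1, 10 of the 12 lay above 0 with a median of 0.31. Rrm1, a subunit of the enzyme that makes deoxynucleotides, had 200.5 and 211 CPM in its wells, against 49.5, 166 and 288 CPM on plate 1 (0.38 ± 0.32). Among G2/M genes, Cenpa, the histone of centromeres, had 209.6 and 204 CPM with 1-Naphthyl PP1, against 20.0, 149 and 352 CPM (0.61 ± 0.43). Flumatinib gave -0.15 ± 0.41 for Cenpa and 0.02 ± 0.25 for Rrm1. The lysosomal protease gene Ctsl, the most abundant of the autophagy and lysosome list, lay between -0.21 ± 0.29 (1-Naphthyl PP1) and 0.19 ± 0.39 (AZM475271), with 0 of 21 to 25 genes called.

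Stress and metabolic lists were also without a call, and the genes named from them were picked as the lowest or highest of their list after the values were seen. Among targets of ATF4, the factor that answers amino acid shortage, 12 of 14 tested genes lay below 0 for 1-Naphthyl PP1 (median -0.15), 10 of 14 for AZM475271 (median -0.16), 11 of 15 for A-419259 (median -0.28) and 10 of 16 for Flumatinib (median -0.04). The lowest for A-419259 was Slc7a11, the cystine transporter, at -1.44, and for 1-Naphthyl PP1 it was Slc3a2, its partner subunit, at -0.96. Of 17 cholesterol synthesis genes tested for Flumatinib, 15 lay above 0 (median 0.20), with Hmgcs1, which makes the precursor of mevalonate, highest at 0.68. The forms differed here: the mean log2(CPM + 1) of the 11 cholesterol genes tested on every plate lay 0.35 above the mean of the other wells with the free base (1.10 SD) and 0.08 above it with the mesylate (0.26 SD). In the same compound 11 of 13 genes of the unfolded protein response lay below 0 (median -0.24), with the chaperone partner Dnajc3 lowest at -0.68. Heat shock and folding genes lay below 0 at 9 of 10 tested genes for 1-Naphthyl PP1 (median -0.18) and at 8 of 10 for AZM475271 (median -0.33), where the chaperone Hsph1 was lowest at -0.90. Of 6 TGF-beta response genes tested for AZM475271, all 6 lay below 0 (median -0.45). Over all genes tested the median was also below 0, at -0.03 for 1-Naphthyl PP1, AZM475271 and A-419259 and -0.02 for Flumatinib. More genes thus lay below 0 than above in each compound. The mean log2(CPM + 1) of the 14 ATF4 targets tested on every plate lay 0.07 above the other wells with Flumatinib and 0.01 below with its mesylate. Genes of a list share wells and are not independent, so these counts describe the wells and carry no test.

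To set whole lists beside the spread of the plates, each list of at least 3 genes tested on every plate was scored per well as its mean log2(CPM + 1), as a difference from the mean of the other compound wells. All 138 scores (23 lists in 6 wells) lay within 2 standard deviations (SD) of those wells, and 126 lay within 1 SD. Those wells held different compounds, some with strong responses, so the SD is wide and ranks from the highest score are given too. The furthest was the focal adhesion list in the A-419259 well at -1.72 SD (40th of 41). Heat shock genes were at -1.25 SD in that well (40th). The 1-Naphthyl PP1 free base well was lowest for glycolysis at -1.56 SD (87th of 88), where its hydrochloride well was at -0.20 SD (47th). AZM475271 was lowest for the TGF-beta response at -1.43 SD (82nd of 88) and for heat shock genes at -1.34 SD (87th). Flumatinib was highest for SRF targets at 1.27 SD (9th of 85), with its mesylate at 0.82 SD (16th).

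**Figure D2:**
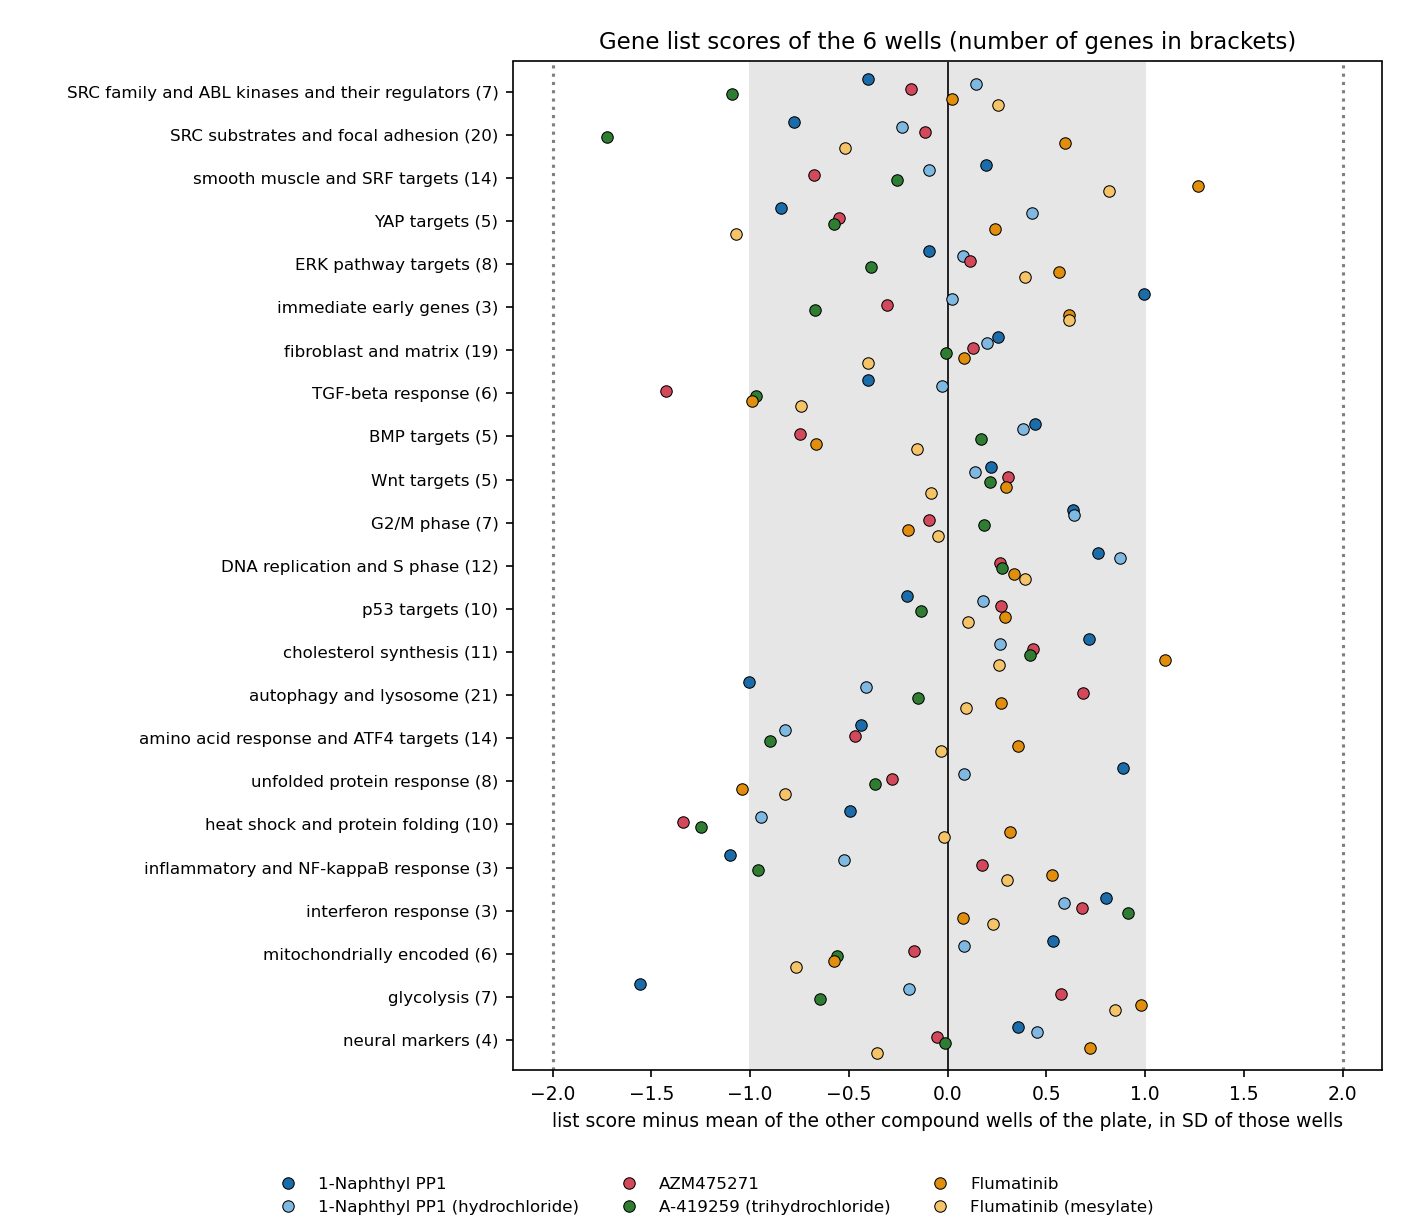
Score of 23 gene lists (rows, number of genes in brackets) in the 6 wells, as the difference from the mean of the other compound wells of the same plate in SD of those wells (x axis; grey band within 1 SD, dotted lines at 2 SD). Each point is 1 well, and all 138 points lie inside the dotted lines, with the A-419259 well at -1.72 SD for focal adhesion genes the furthest out.

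The genes with the smallest p-values are given as such, since none was called. For Flumatinib the smallest was S100a4 (chromosome 3, 90603771 to 90606045, plus strand), a calcium-binding protein of motile fibroblasts. It had 841 CPM with Flumatinib and 824 CPM with the mesylate, against 300, 477 and 951 CPM in the other wells of plate 2. Only 1 other well of the plate was higher than either, and the log2 fold change was 0.74 ± 0.20 (SE; unadjusted p = 0.000267, edgeR). Gde1, a phosphodiesterase of glycerophospholipid breakdown (chromosome 7, 118688545 to 118705778, minus strand), had 54.7 and 50.2 CPM, against 59.4, 86.8 and 182 CPM. Both Flumatinib wells lay below all 84 other wells (-0.74 ± 0.22, unadjusted p = 0.00106, edgeR), and Gde1 was the only gene of 5295 (0.0189%) at which both wells lay beyond every other well. The other genes were the cargo adaptor gene Bicd2 (-0.83 ± 0.25), the mitochondrial chaperone gene Dnaja3 (-0.95 ± 0.31) and 2010012O05Rik (-1.04 ± 0.29).

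For 1-Naphthyl PP1 the genes given include Cops2, a subunit of the COP9 signalosome. It had 68.3 and 79.04 CPM, against 14.8, 39.3 and 75.2 CPM on plate 1, with the hydrochloride well above all others (0.90 ± 0.28, unadjusted p = 0.00210, edgeR). Capn1, the catalytic subunit of the protease calpain 1, had 27.3 and 65.9 CPM, against 40.5, 116 and 229 CPM (-1.20 ± 0.39). The free base well, with 6 counts, was below all others, and the hydrochloride well, with 20 counts, was 80th. Tomm22, a subunit of the mitochondrial import pore, was at -0.58 ± 0.19 and Ubxn6, a cofactor of the segregase VCP, at -0.74 ± 0.24. At 0 of 3441 genes (0.0%) did both wells of 1-Naphthyl PP1 lie beyond every other well.

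For AZM475271 these genes were Eny2, a subunit of the transcription coactivator SAGA (-1.39 ± 0.49), the homeobox gene Hoxb9 (-1.70 ± 0.63), the kinase gene Cdk11b (-0.94 ± 0.37), Id2, an inhibitor of helix-loop-helix factors and BMP target (-0.82 ± 0.34), and Thap7 (0.70 ± 0.29). Id2 had 110.3 CPM, against 66.1, 193 and 338 CPM on plate 1, and ranked 84th. None of the 5 lay outside the range of the other wells. Eny2 rested on 7 counts in the well and Hoxb9 on 6. The AZM475271 well lay beyond every other well of its plate at 6 of 3441 genes (0.174%), which ranked it 83rd of 88, as against a median of 31 genes for the other wells.

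For A-419259 the genes were Ppfia1, a liprin of focal adhesion turnover (-1.94 ± 0.54), Gnb2, a G protein beta subunit (-0.73 ± 0.21), the peroxisomal import gene Pex14 (-1.12 ± 0.34), Tmod3, which caps actin filaments (-2.31 ± 0.70), and the ubiquitin ligase gene Dtx2 (-1.84 ± 0.57). Gnb2 had 291 CPM in the A-419259 well, against 416, 497 and 761 CPM in the other wells of plate 3. All 5 lay below every other well of the plate. Ppfia1 rested on 5 counts in the well, Tmod3 on 3 and Dtx2 on 4. The well lay beyond all 40 others at 176 of 4524 genes (3.89%), of which 123 were below and 53 above. It ranked 16th of 41 wells by that count, as against a median of 114.5 genes for the other wells.

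In a joint fit over the 3 plates with a plate term, the mean over the 4 compounds gave 0 called of 5990 genes (0.0%), with 300 at an unadjusted p under 0.05 (5.01%) and 317 by DESeq2, which also called 0. Of the 300, 245 were lower and 55 higher than in the other wells. The median SE was 0.20, and the 95% interval lay within 2-fold for 91.8% of the genes. Of 22 focal adhesion genes tested in this fit, 0 were called, 15 lay below 0, and 6 were lower at an unadjusted p under 0.05 in edgeR. All 11 TGF-beta response genes tested lay below 0 (median -0.32), with 0 called. Both lists were picked after the values were seen, and whether they differed from all genes was not tested. The smallest p belonged to Mrpl39, a mitochondrial ribosomal protein (-1.72 ± 0.50), followed by Sf3b1, a core splicing factor (-0.62 ± 0.19), Hnrnpr, an RNA-binding protein (-0.70 ± 0.22), the lysosomal disease gene Cln6 (-0.84 ± 0.27), and the RNA helicase of nonsense-mediated decay Upf1 (-0.78 ± 0.25). Sf3b1 had 41.0, 32.9 and 60.1 CPM in the 1-Naphthyl PP1 free base, hydrochloride and AZM475271 wells, against a median of 57.7 CPM on plate 1, so the direction was not shared by all wells. Mrpl39 had 0 counts in the AZM475271 well and between 8.10 and 17.4 CPM in the other 5, against plate medians of 12.3 to 30.8 CPM, and without that well the log2 value was -0.40. Hnrnpr lay below its plate median in all 6 wells, at 14.9 to 27.3 CPM against plate medians of 29.5 to 34.5 CPM. Cln6 lay above it in the 1-Naphthyl PP1 free base well (27.3 CPM against 24.4 CPM) and below it in the remaining wells. Upf1 lay above it in the Flumatinib mesylate well (32.4 CPM against 25.5 CPM) and below it in the remaining wells. Both genes had 7.46 CPM in the A-419259 well.

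Compounds were then compared with one another. All 8 pairs (6 pairs of compounds and 2 pairs of salt and free base) were tested in 1 fit with a plate term, and p-values were adjusted over all genes and pairs together. There were 0 calls in each pair (0.0% of 5990 genes), with between 51 and 335 genes at an unadjusted p under 0.05. Time was the same in all wells, and no source used here states the dose. Only AZM475271 and 1-Naphthyl PP1 shared a plate; the other 5 compound pairs are differences between differences from 2 plates. The pairs were imprecise: the 95% interval of the difference lay within 2-fold for 29.6% of genes between Flumatinib and 1-Naphthyl PP1, for 17.4% between AZM475271 and 1-Naphthyl PP1 and for 10.9% between A-419259 and AZM475271. Zyx is an example of a tight one, at -0.01 ± 0.32 (interval -0.64 to 0.62) for AZM475271 minus 1-Naphthyl PP1. Abl1 was 1.20 ± 0.45 higher in value with A-419259 than with AZM475271 (interval 0.32 to 2.08, unadjusted p = 0.00770, edgeR; not called).

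A salt form differs from its free base only in the acid paired with the drug. For Flumatinib, mesylate minus free base gave 0 calls, with 51 genes at an unadjusted p under 0.05, and an interval within 2-fold for 20.1% of genes. S100a4 had 824 CPM in the mesylate well and 841 CPM in the free base well (0.01 ± 0.52, interval -1.02 to 1.04), and Csk had 129.6 CPM with the mesylate and 123 CPM with the free base (0.11 ± 0.33, interval -0.54 to 0.76). Ddr2 was further apart, at 30.8 CPM with the mesylate and 50.5 CPM with the free base (-0.67 ± 0.49, interval -1.64 to 0.30). For 1-Naphthyl PP1, hydrochloride minus free base gave 0 calls, with 146 genes at an unadjusted p under 0.05, and an interval within 2-fold for 9.05% of genes. Src had 65.9 CPM with the hydrochloride and 27.3 CPM with the free base, a difference of 1.23 ± 0.64 (interval -0.03 to 2.50, unadjusted p = 0.0559, edgeR).

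**Figure D3:**
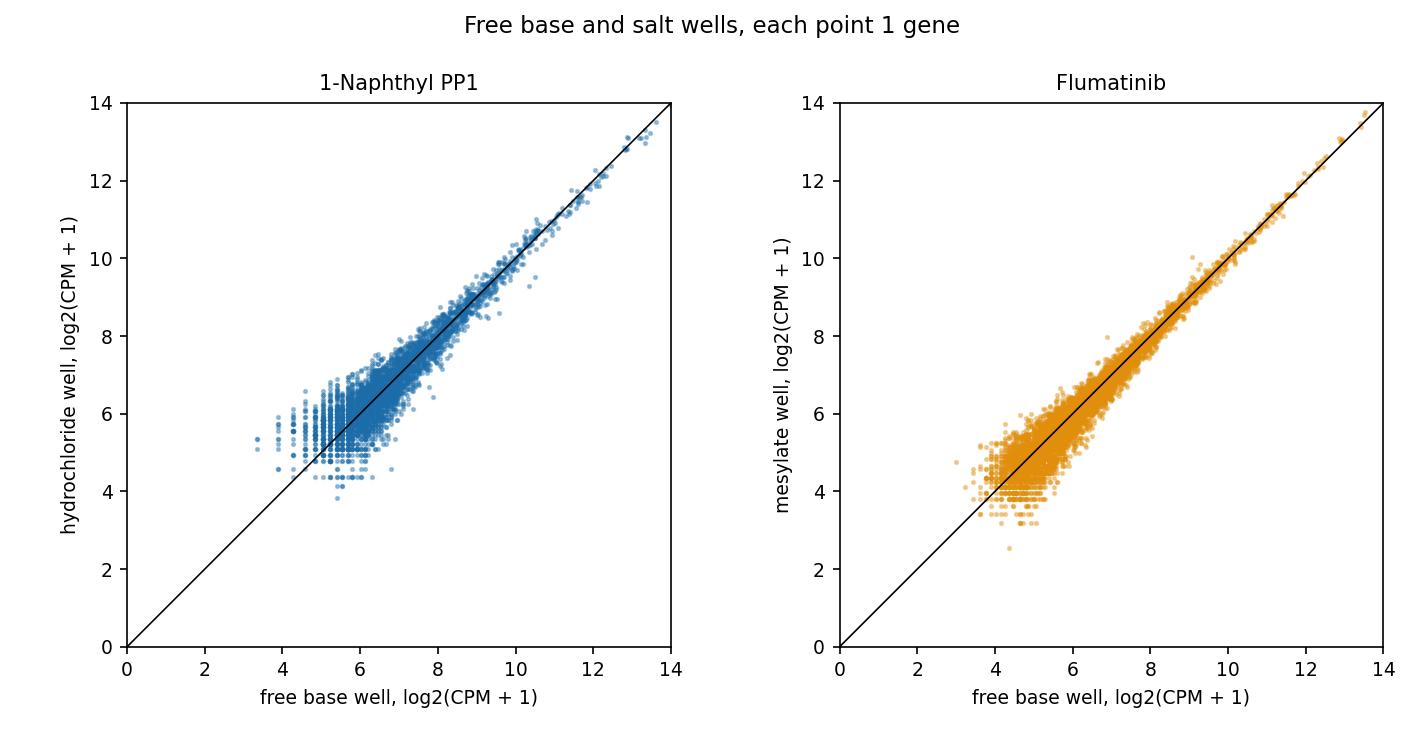
Each point is 1 gene, plotted by log2(CPM + 1) in the free base well (x axis) and in the salt well (y axis) of 1-Naphthyl PP1 (3441 genes) and Flumatinib (5295 genes), with the line of equal values. Points scatter more widely at low values, and more in the 1-Naphthyl PP1 panel (r = 0.944) than in the Flumatinib panel (r = 0.971).

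The whole profiles of the forms were compared by Pearson's correlation of log2(CPM + 1) over the tested genes, as a description. The Flumatinib wells had r = 0.971 over 5295 genes, and each was the nearest of the 85 other wells of the plate to the other. The median r of a Flumatinib well with those wells was 0.959, and 0.956 for the mesylate. The 1-Naphthyl PP1 wells had r = 0.944 over 3441 genes. The hydrochloride was the third nearest of 89 wells to the free base, but the free base was only the 42nd nearest to the hydrochloride. The nearest to the free base was AZD_8835 (0.946), followed by Src Inhibitor 1 (0.945), and the nearest to the hydrochloride was K145 (0.961), followed by GSK583 and Src Inhibitor 1 (0.959 each). The nearest to AZM475271 were Sal003, GSK269962A and K145, and the nearest to A-419259 was Tetrahydrocurcumin (0.958). The points share the base level of each gene and the depth of the 2 wells, and the part of depth in r was not tested.

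How far each well stood from the rest was measured as the root mean square deviation of log2(CPM + 1) from the plate median, over genes with a median of at least 50 CPM. This measure was added after the data had been seen. The values were 0.408, 0.295 and 0.279 in the 1-Naphthyl PP1 free base, hydrochloride and AZM475271 wells, against 0.247, 0.350 and 1.63 (lowest, median, highest) in the other wells of plate 1. They were 0.252 in both Flumatinib wells, against 0.175, 0.269 and 1.20 on plate 2, and 0.347 in the A-419259 well, against 0.190, 0.302 and 1.01 on plate 3. Only the 1-Naphthyl PP1 free base well and the A-419259 well exceeded the median of their plate. The 1-Naphthyl PP1 free base well had the lowest total of the 6, and the part of depth in its value was not tested.

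**Figure D4:**
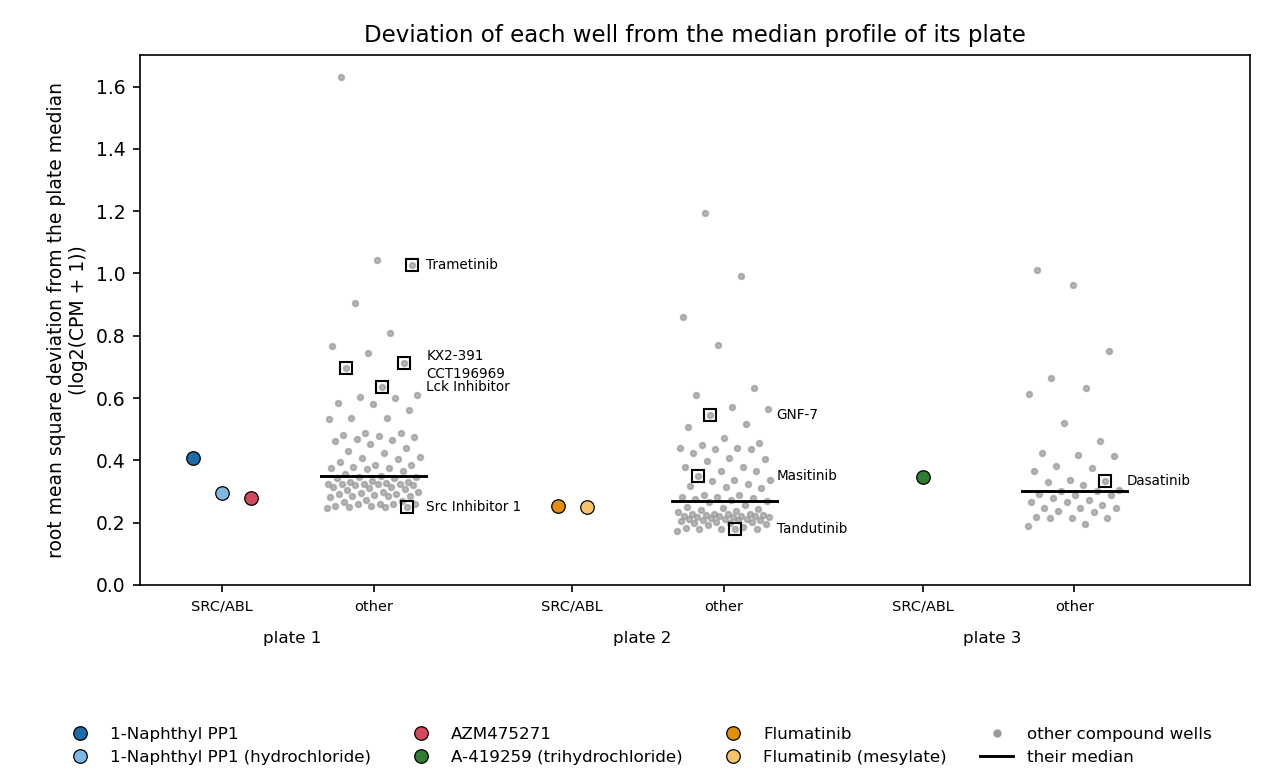
Root mean square deviation of each well from the median profile of its plate in log2(CPM + 1) (y axis), for the 6 SRC and ABL inhibitor wells (coloured, left) and the other compound wells (grey, black line at their median) of plates 1 to 3, with 9 other inhibitors boxed and named. The coloured wells lie between 0.252 and 0.408, those of plate 1 below trametinib, KX2_391, CCT196969 and Lck Inhibitor and those of plate 2 below GNF-7 and Masitinib, while Src Inhibitor 1 (0.252), Tandutinib (0.178) and Dasatinib (0.333) lie below the coloured wells of their plates.

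Some of the other inhibitors with SRC, ABL, KIT or PDGF receptor kinases among their known targets were set beside them. The MEK inhibitor trametinib was added as an example of a strong response. These 9 wells were chosen after the data had been seen and are not a full set. Wells of further inhibitors that may share these targets stayed in the reference. With all 9 taken out of the reference, trametinib changed 658 of 3441 genes (19.1%), and CCT196969, an inhibitor of RAF and SRC kinases, changed 136 (3.95%). KX2_391, which binds SRC and tubulin, changed 14 (0.407%) and Lck Inhibitor changed 6 (0.174%). Src Inhibitor 1 on plate 1, GNF-7, Masitinib and Tandutinib on plate 2, and Dasatinib on plate 3 had 0 calls each in edgeR (0.0%). At an unadjusted p under 0.05, trametinib had 1118 genes (32.5%), KX2_391 702 (20.4%), Lck Inhibitor 577 (16.8%) and CCT196969 562 (16.3%). GNF-7 had 628 (11.9%), Masitinib 207 (3.91%), Tandutinib 35 (0.661%), Dasatinib 121 (2.67%) and Src Inhibitor 1 had 28 (0.814%). In the same fit the 4 compounds described here had 0 calls and 116, 43, 130 and 181 genes at an unadjusted p under 0.05 (1-Naphthyl PP1, AZM475271, A-419259 and Flumatinib).

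**Figure D5:**
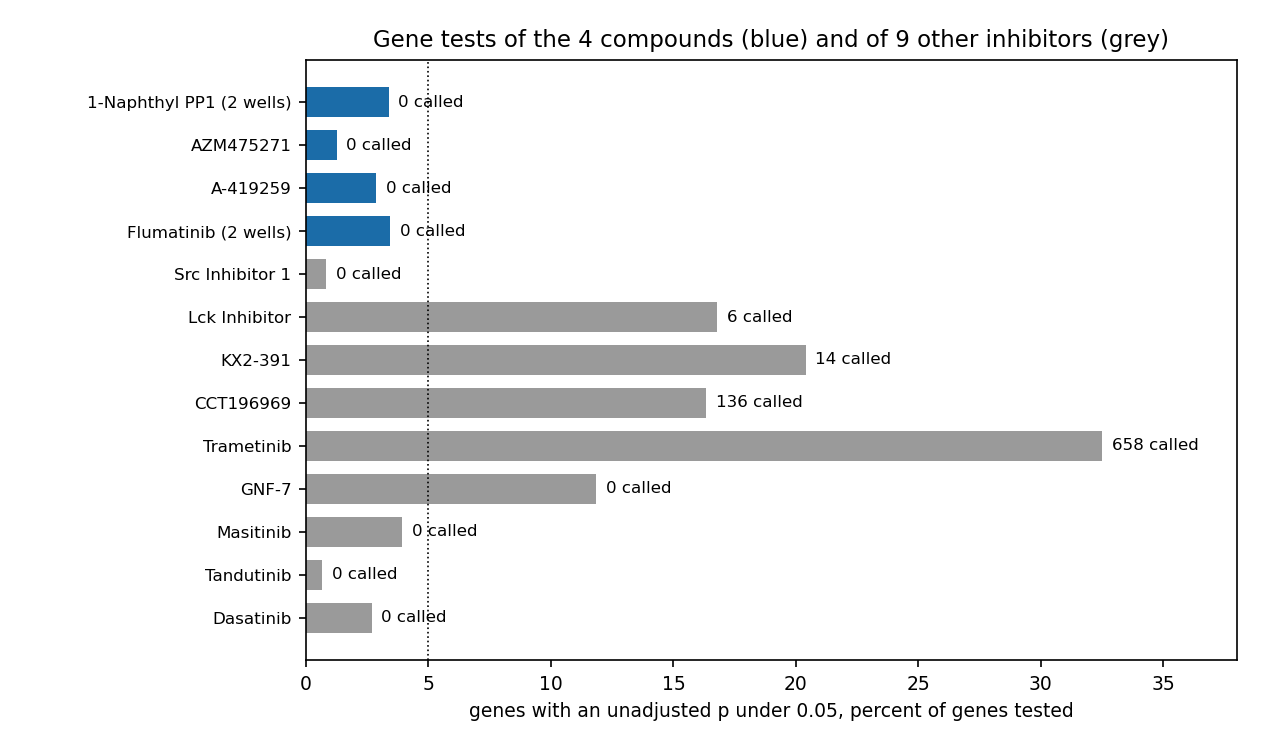
Percent of tested genes with an unadjusted p under 0.05 (x axis; dotted line at 5) for the 4 compounds (blue) and 9 other inhibitors (grey), all tested in fits whose reference leaves out these 9, with the number of genes called at an adjusted p of 0.05 beside each bar. The blue bars are all below 5% with 0 called, and the longest grey bar is trametinib with 658 called.

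Over the 658 genes of trametinib, the median absolute log2 fold change was 0.18 for 1-Naphthyl PP1 and 0.17 for AZM475271, beside 1.39 for trametinib itself. Of the 658, 10 had an unadjusted p under 0.05 for 1-Naphthyl PP1 and 1 for AZM475271, beside 3.37% and 1.25% of all genes tested, and the 95% interval lay within 2-fold for 444 and 310. Over the 136 genes of CCT196969 it was 0.16 and 0.20, beside 1.55 for CCT196969, and 0 of the 136 had an unadjusted p under 0.05 in either compound. The interval lay within 2-fold for 80 of the 136 for 1-Naphthyl PP1 and for 58 for AZM475271. The comparator values are those that chose these genes and are given as a description. Some of these genes vary widely in the reference, which makes a small p less likely. The SE of Col3a1 was 0.87 for 1-Naphthyl PP1 and 1.16 for AZM475271, beside a median SE over all genes of 0.29 and 0.37. The counts of small p-values therefore do not show that a response was absent. Gadd45g, a stress-inducible growth arrest gene, had 50.1 and 79.04 CPM in the 1-Naphthyl PP1 wells and 55.1 CPM with AZM475271, against 257 CPM with CCT196969. Csrp2, a LIM protein of contractile cells, had 118 and 75.7 CPM with 1-Naphthyl PP1 and 87.7 CPM with AZM475271, against 597 CPM with trametinib.

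The difference from a comparator was also tested directly in 8 pairs on the same plate, with p-values adjusted over all genes of the 8 pairs. None gave a call in edgeR with this pooled adjustment (0.0% of the genes tested). The compounds and comparators above were adjusted within each comparison. For AZM475271 minus CCT196969 the smallest unadjusted p was 3e-06 (edgeR, 3441 genes). That p would pass 0.05 if adjusted over the genes of this pair alone, so its 0 calls depend on the pooling. The pairs were imprecise, with an interval within 2-fold for 11.8% (AZM475271 minus KX2_391) to 43.7% (Flumatinib minus Tandutinib) of genes. The smallest adjusted p was 0.103 for AZM475271 minus CCT196969 (357 genes at an unadjusted p under 0.05), 0.182 for 1-Naphthyl PP1 minus Lck Inhibitor (591), 0.252 for AZM475271 minus KX2_391 (392), 0.468 for AZM475271 minus Src Inhibitor 1 (47), 0.141 for Flumatinib minus GNF-7 (533), 0.141 for Flumatinib minus Masitinib (284), 0.304 for Flumatinib minus Tandutinib (71), and 0.268 for A-419259 minus Dasatinib (179).

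Plate 3 also held 5 wells named bC8FAE, with no compound in the name. Against these wells alone A-419259 had 0 called of 3833 genes (0.0%), with 111 at an unadjusted p under 0.05 in edgeR. Without bC8FAE 4, which had 119295 counts against 390895 to 505914 in the other 4, it had 0 of 3974, with 194 at an unadjusted p under 0.05. In the same fits Dasatinib, an inhibitor of SRC and ABL, had 3 called of 3833 (0.0783%), and 129 of 3974 (3.25%) without bC8FAE 4. The difference between A-419259 and Dasatinib in these fits was not tested.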

How the data were processed

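The deposited table held whole-number counts per gene and well, not scaled by the authors, as the values show. The submitters' processing notes name STAR and the mm10 build; no source used here states the counting tool, the strand setting, the annotation or whether molecular identifiers were collapsed. Of 274 columns in the table (20471 genes, 26 with date-like names), 253 were given to 1 plate by the barcode lists. The other 21 were not used, the well named CHR_6494 among them. Wells under 10% of the median total of their plate were left out.

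Tests used edgeR 4.0.16 in R 4.3.3 with TMM scaling, filterByExpr (minimum count 10) and the quasi-likelihood test, with each compound as a term and the spread estimated over all compound wells of the plate. In the fits of 1 plate a gene had to be present in most wells to be tested. In the joint fit and the fit of compound and salt pairs, the smallest plate set the number of wells needed. Genes seen in fewer wells entered only without the filter. Calls were at an adjusted p of 0.05. SE is the size of the log2 fold change over the root of the F statistic, and 95% intervals use the t distribution. DESeq2 1.42.0 was an alternative. The code was tested on simulated data. CPM is a well's counts scaled by its total.

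The compounds and the 33 gene lists were chosen with earlier results of these data known, so no list was tested. Named genes were, by rule, called genes, or where fewer than 5 were called the 5 with the smallest unadjusted p, and the genes of the kinase lists at 10 CPM or more. 1 gene so named is not reported here. After the values were seen, the most abundant gene of 9 lists was added, as were Acta2, Col1a1 and the 9 comparator wells. Crk and the genes named from the stress and metabolic lists were also added then, as the lowest or highest of their list. Alternatives were another scaling, no filter, a 25% depth minimum, a robust spread, DESeq2, other reference wells, a joint fit, and leaving out each well.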

Additional observations from a re-analysis of the deposited data

How the results depend on the processing

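The count of called genes was 0 under the main setting and each of the 22 alternatives, for every compound, well, pair and joint contrast to which they were applied (121 of 121 counts, edgeR or DESeq2). The smallest adjusted p was 0.0593, for Cyp11a1, a steroid hormone enzyme, with Flumatinib and no filter on low counts, from 4 and 6 counts in the Flumatinib wells, against 0 counts in 70 of the 84 other wells and at most 6. Of the named genes' log2 values, 1053 kept their direction and 35 did not; none was called, and the cause was not tested. With 1 form of 1-Naphthyl PP1 left out, the lowest and highest log2 values were Abl1 -0.0537 and 0.12, Ptpra -0.13 and 0.23, Rin1 -0.00276 and 0.37, Pdgfc -0.23 and 0.41, Zyx -0.0328 and 0.0576 and, for Acta2, -0.41 and 0.23. With 1 form of Flumatinib left out, the lowest and highest log2 values were Src -0.16 and 0.0426, Abi1 -0.0164 and 0.00921, Pdgfrb -0.11 and 0.0763, Ier5 -0.12 and 0.0306, Thy1 -0.0612 and 0.15 and, for Rrm1, -0.17 and 0.18. With no filter the log2 values were Pdgfc 0.00419, Zyx 0.0472, Cenpa 0.0470 for AZM475271 and Abi1 0.0362, Pdgfrb 0.0223 for Flumatinib. Against the bC8FAE wells alone the log2 values were Abl2 -0.16, Csf1 0.47, Zyx 0.0309, Amotl1 -0.0231, Col1a1 0.0119 for A-419259. Against these without bC8FAE 4 the log2 values were Abl2 -0.23, Ptpn1 0.0518, Csf1 0.52, Zyx 0.00863, Actb 0.0203, Col1a1 0.16 for A-419259. In the joint fit the log2 values were Abi1 0.00170 for Flumatinib and Zyx 0.0116, Cenpa 0.0185 for AZM475271. With the 9 other inhibitors out of the reference the log2 values were Abi1 0.00192 for Flumatinib and Acta2 0.20 for 1-Naphthyl PP1. With a 25% depth minimum the log2 value was Cenpa 0.00762 for AZM475271. With 4 SRC-directed wells out of the reference the log2 value was Acta2 0.0426 for 1-Naphthyl PP1. The references without named inhibitors and those of bC8FAE wells alone were chosen after seeing the data.

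No paired analysis was possible because the wells carry no replicate numbers shared between compounds. With 1 or 2 wells per compound, the intervals of many genes reached past 2-fold, and they cover the spread between wells of a plate.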
